A study of Mus musculus with 2 samples.

Results

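The genes described here are those of the Notch pathway in the embryonic mouse pituitary: ligands, receptors, the enzymes that modify and cut the receptors, the nuclear complex, the Numb inhibitors and the target genes. They were taken as a list of 36 named genes out of the 55401 genes of each expression table, by matching Ensembl identifiers to GENCODE symbols, and all 36 were found. The list was chosen by pathway membership, with earlier results of these data known. Of the 36 genes, 33 reached at least 1 FPKM (sequenced fragments divided by the gene's exon length in kilobases and by the library's total) in at least 1 library, and Dlk2, Hes3 and Hes7 did not.

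Pituitaries were collected at E12.5, in mid-gestation, from mice lacking the protein kinase Dyrk2 (labelled Dyrk2-KO) and from wild-type mice (labelled WT), with 1 polyA-selected, strand-specific RNA library of each. The labels describe no other allele and no treatment in either genotype. The number and sex of the embryos behind each library, and the part of Dyrk2 that was deleted, are not stated there. The title of the series names primary cilia, cell-type determination and angiogenesis, and each comparison below sets the Dyrk2-KO library beside the wild-type library.

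Notch is a receptor for signals between touching cells. A ligand of the Delta-like or Jagged family on one cell pulls on a receptor of its neighbour, an ADAM protease and then gamma-secretase cut the receptor, and the freed intracellular part joins Rbpj and a Mastermind-like protein on DNA to switch on genes of the Hes and Hey families. These encode repressors that hold back differentiation. In the mouse pituitary the pathway is known for keeping progenitors of Rathke's pouch undifferentiated, and in vessels for arterial identity, sprouting and the coat of mural cells.

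Since each genotype has 1 library, the differences cannot be checked against replicates and carry no p-values. The depth recovered from the values was 20115567 counted fragments for Dyrk2-KO and 20045807 for wild type, and the 95% intervals given throughout cover counting error only. Dyrk2 itself measured 1.93 FPKM in the Dyrk2-KO library and 11.5 FPKM in the wild-type library. The pituitary factor Pitx1 was at 227 and 250 FPKM in the Dyrk2-KO and wild-type libraries, and all 12 listed pituitary markers passed 1 FPKM. Xist, transcribed from the inactive X chromosome, measured 14.8 FPKM in the Dyrk2-KO library and 75 FPKM in the wild-type library, while the Y-linked Ddx3y measured 14.95 and 5.83 FPKM, so the libraries differed in the mixture of sexes. The part of that mixture in the Notch values was not tested.

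Levels of most Notch genes were similar between the libraries, and the few that differed by more were lower in the Dyrk2-KO library. With 0.5 FPKM added to both values, 30 of the 33 genes above 1 FPKM lay within 1.5-fold. The target Heyl, the ligand Dll4 and the sugar transferase Lfng were at least 1.5-fold lower, and no member was at least 1.5-fold higher. Over all 14000 genes compared, 4.56% were lower and 2.06% higher by this measure. Heyl alone among the members was at least 2-fold lower, a size that 1.89% of all genes reached, and none was at least 2-fold higher, as 0.857% of all genes were. The log2 ratio was below 0 for 24 of the 33 genes, above 0 for 8 and exactly 0 for Numb, against 53.7% of all genes below 0. The median log2 ratio was -0.06 over the 33 genes and -0.02 over all genes compared.

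The counting interval of the plain ratio lay below 1 for 13 of the 33 genes and above 1 for 2, which were Notch2 and Pofut1. Over all genes the shares were 22.3% below and 17.7% above. These calls depend on small shifts in scale. When the Dyrk2-KO library was multiplied by 1.023, as a trimmed mean of log ratios asks, 17.8% of all genes lay below and 22.8% above, while the members stood at 11 below and 2 above. Ncstn and Hes1 were the members whose intervals then reached 1.

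**Figure D1:**
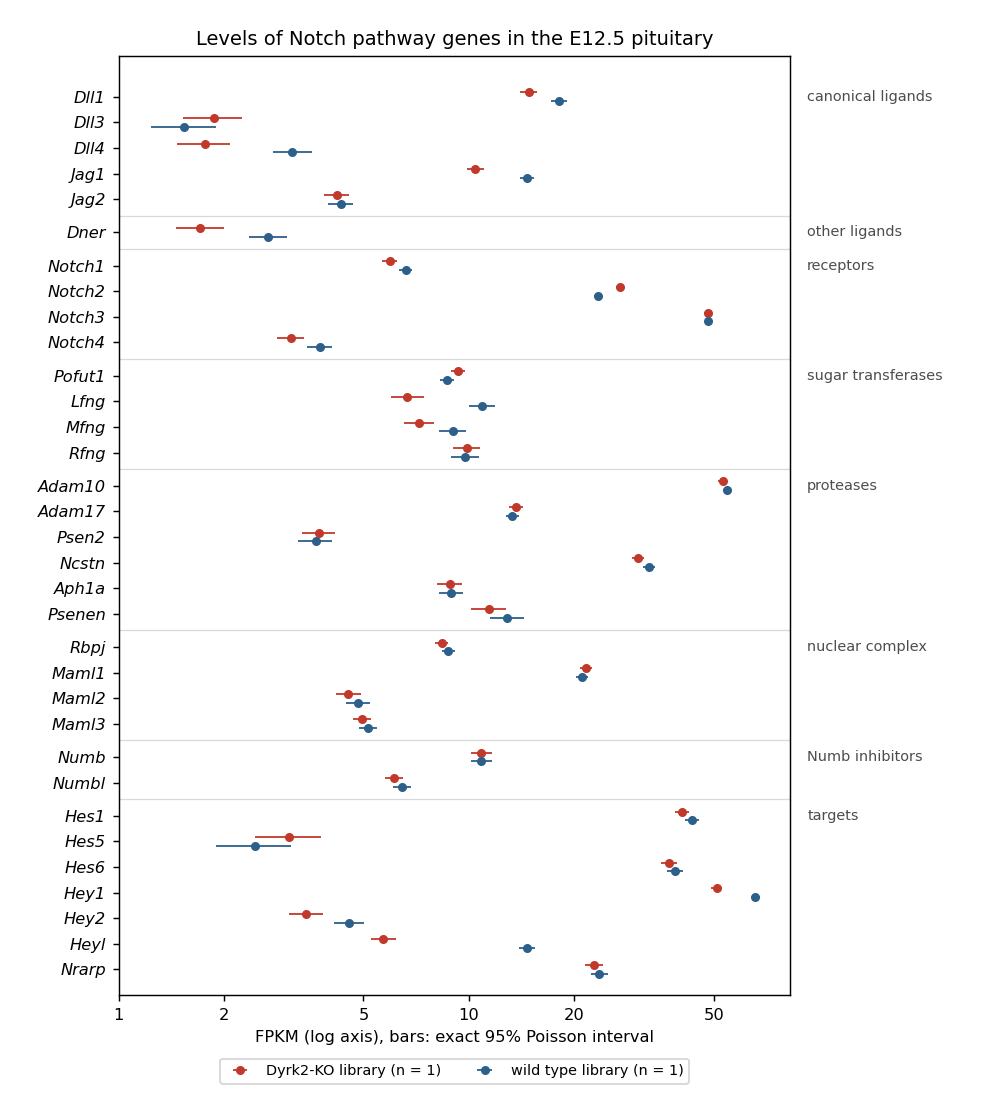
FPKM of the 33 Notch genes above 1 FPKM in the Dyrk2-KO library (red, upper point of each pair) and the wild-type library (blue, lower point), on a log axis, ordered by role. Bars are exact 95% Poisson intervals. Most pairs overlap, while Heyl lies at 5.70 FPKM in the Dyrk2-KO library and 14.6 FPKM in the wild-type library.

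Among the canonical ligands, Dll1, Jag1 and Dll4 were lower in the Dyrk2-KO library, and Jag2 and Dll3 had intervals that include 1. Dll1, the ligand best known from neural and somite progenitors, was the most abundant of them per length and measured 14.8 FPKM (95% Poisson interval 14.0 to 15.6) in the Dyrk2-KO library and 18.1 FPKM (17.2 to 19.0) in the wild-type library. Its Dyrk2-KO over wild-type ratio was 0.818 (0.758 to 0.881). Jag1, which acts between endothelial and mural cells among other tissues, measured 10.4 FPKM in the Dyrk2-KO library and 14.6 FPKM in the wild-type library. That ratio was 0.713 (0.662 to 0.768), and 6.59% of all genes compared had a lower log2 ratio than Jag1.

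Dll4, the ligand of arterial and sprouting endothelium, is a plus-strand gene on chromosome 2, at 119325784 to 119335962 of GRCm38. Its level was 1.76 FPKM (1.47 to 2.08, 136 fragments) in the Dyrk2-KO library and 3.13 FPKM (2.75 to 3.55, 242 fragments) in the wild-type library. The intervals do not overlap, and the level was 1.78-fold lower (1.44 to 2.22) in the Dyrk2-KO library. Among all genes compared, 3.49% had a lower log2 ratio.

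Jag2, a ligand found in epithelia and arteries, was level, at 4.19 FPKM in the Dyrk2-KO library and 4.30 FPKM in the wild-type library. Dll3, which acts inside the cell that makes it and does not activate receptors on neighbours, measured 1.87 FPKM from 107 fragments in the Dyrk2-KO library and 1.54 FPKM from 88 fragments in the wild-type library. Its ratio of 1.21 has an interval from 0.905 to 1.63, so these depths cannot separate the Dll3 levels. Summed over the 5 canonical ligands the level was 33.0 FPKM in the Dyrk2-KO library and 41.7 FPKM in the wild-type library. Dll1 made up 44.8% of that sum in the Dyrk2-KO library and 43.4% in the wild-type library, and Jag1 made up 31.6% and 35.1%.

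The other ligands listed were weakly expressed. Dner, a neuronal transmembrane protein described as a Notch ligand, measured 1.71 FPKM (1.46 to 1.997) in the Dyrk2-KO library and 2.67 FPKM (2.35 to 3.02) in the wild-type library. It was 1.56-fold lower as a plain ratio (1.28 to 1.91), and within 1.5-fold once 0.5 FPKM was added. Dlk2, an inhibitory relative of the Delta-like ligands, was at 0.19 FPKM from 8 fragments in each library.

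The receptors were close to level as a family and ranked Notch3, Notch2, Notch1, Notch4 by level in both libraries. Their summed level was 84.0 FPKM in the Dyrk2-KO library and 81.8 FPKM in the wild-type library. Notch3, best known as the receptor of mural cells, made up 57.1% of it in the Dyrk2-KO library and 58.8% in the wild-type library. It measured 48.0 FPKM (46.9 to 49.1) in the Dyrk2-KO library and 48.1 FPKM (47.1 to 49.2) in the wild-type library, with a ratio of 0.998 (0.966 to 1.03). Resting on 7810 fragments in the Dyrk2-KO library and 7803 in the wild-type library, this is the tightest ratio among the 33 genes.

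Notch2, a receptor known from pituitary progenitors, was the one receptor that was higher in the Dyrk2-KO library, at 27.0 FPKM (26.3 to 27.7) there and 23.4 FPKM (22.7 to 24.0) in the wild-type library. Its ratio was 1.15 (1.11 to 1.20). Notch1, the receptor used most widely in the embryo, measured 5.94 FPKM in the Dyrk2-KO library and 6.59 FPKM in the wild-type library, a ratio of 0.901 (0.844 to 0.963). Notch4, a receptor of endothelium, measured 3.10 FPKM in the Dyrk2-KO library and 3.75 FPKM in the wild-type library, a ratio of 0.827 (0.733 to 0.933). The receptors thus lay on both sides of equality, each within 1.5-fold.

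The enzymes that put sugars on the receptor diverged. Pofut1 adds the first fucose to the receptor's repeats and was slightly higher in the Dyrk2-KO library, at 9.33 FPKM against 8.67 FPKM in the wild-type library, with a ratio of 1.08 (1.01 to 1.15). The fringe enzymes extend that sugar, by which Lfng and Mfng bias the receptor towards Delta-like over Jagged ligands. Lfng, a plus-strand gene at 140607320 to 140615545 of chromosome 5, measured 6.67 FPKM (5.97 to 7.42) in the Dyrk2-KO library and 10.9 FPKM (9.999 to 11.8) in the wild-type library. Its intervals do not overlap, the level was 1.63-fold lower (1.42 to 1.88) in the Dyrk2-KO library, and 3.63% of all genes had a lower log2 ratio.

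Mfng was lower by less, at 7.20 FPKM (6.52 to 7.93) in the Dyrk2-KO library and 9 FPKM (8.23 to 9.81) in the wild-type library, a ratio of 0.800 (0.701 to 0.913). Rfng was level, at 9.85 FPKM in the Dyrk2-KO library and 9.74 FPKM in the wild-type library. Rfng had the highest level of the fringe genes in the Dyrk2-KO library, with 41.5% of their summed FPKM. Lfng had the highest value in the wild-type library, with 36.7%. The wild-type intervals of Lfng (9.999 to 11.8) and Rfng (8.89 to 10.6) overlap, so their order in that library is not resolved.

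The proteases that release the signal were level. Adam10, the sheddase that makes the ligand-dependent cut, was the most abundant member in the Dyrk2-KO library, at 52.9 FPKM, and measured 54.4 FPKM in the wild-type library. Adam17, a related sheddase, measured 13.6 FPKM in the Dyrk2-KO library and 13.3 FPKM in the wild-type library. Both ratios have intervals that include 1.

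Of the gamma-secretase genes, Psen2, a catalytic subunit, measured 3.73 FPKM in the Dyrk2-KO library and 3.65 FPKM in the wild-type library, and Aph1a, a scaffold subunit, measured 8.80 and 8.91 FPKM. Psenen, a small subunit needed for activity, measured 11.4 FPKM in the Dyrk2-KO library and 12.9 FPKM in the wild-type library, with an interval of the ratio from 0.753 to 1.04. Ncstn, the substrate-binding subunit nicastrin, measured 30.3 FPKM in the Dyrk2-KO library and 32.6 FPKM in the wild-type library, a ratio of 0.929 (0.879 to 0.983). No protease or subunit of the 6 reached 1.5-fold, and their log2 ratios ran from -0.17 to 0.03.

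The nuclear complex spanned the narrowest range of log2 ratios among the role groups with at least 4 measured genes. Rbpj, the DNA-binding partner of the cut receptor, measured 8.37 FPKM (8.02 to 8.73) in the Dyrk2-KO library and 8.73 FPKM (8.37 to 9.10) in the wild-type library. Of the Mastermind-like coactivators, Maml1 measured 21.6 FPKM in the Dyrk2-KO library and 21.1 FPKM in the wild-type library. In the Dyrk2-KO library Maml2 measured 4.53 FPKM and Maml3 4.95 FPKM, against 4.83 and 5.16 FPKM in the wild-type library. Log2 ratios of the complex ran from -0.08 to 0.04, and every one of its 4 counting intervals included 1.

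Numb, an endocytic adaptor that inhibits the receptor in one daughter of an asymmetric division, stood at 10.9 FPKM in both libraries. Numbl, its close relative, measured 6.11 FPKM in the Dyrk2-KO library and 6.44 FPKM in the wild-type library, with an interval of the ratio that includes 1.

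**Figure D2:**
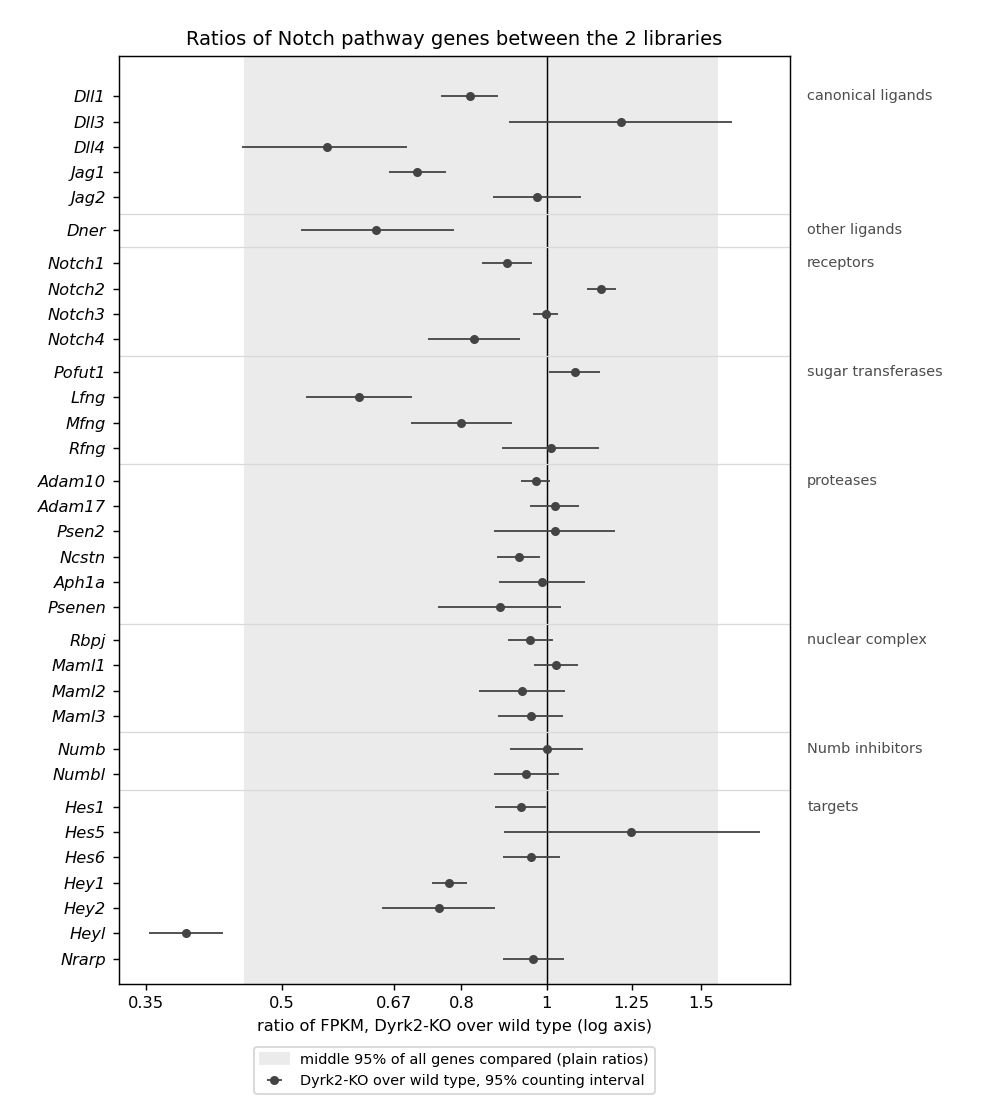
Plain Dyrk2-KO over wild-type ratio of FPKM for the 33 Notch genes, on a log axis, with exact 95% Clopper-Pearson intervals; the grey band holds the middle 95% of all 14000 genes compared, from 0.454 to 1.56. Heyl, at 0.389, lies outside the band, and the other members' points lie inside it.

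Of the target genes, Hes1 and Hes6 were near level, Hes5 was not resolved, and the Hey genes were all lower in the Dyrk2-KO library. Hes1, the repressor best known for holding pituitary progenitors, measured 40.5 FPKM (38.6 to 42.5) in the Dyrk2-KO library and 43.4 FPKM (41.4 to 45.4) in the wild-type library. Its ratio was 0.935, and the interval from 0.874 to 0.9999 ends at equality. Hes6, which antagonises Hes1 and marks cells that begin to differentiate, measured 37.3 FPKM in the Dyrk2-KO library and 38.8 FPKM in the wild-type library. Hes1 and Hes6 together made up nearly all of the summed Hes level in both libraries, with Hes1 at 49.98% in the Dyrk2-KO library and 51.1% in the wild-type library.

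Hes5, a target in neural progenitors, measured 3.06 FPKM from 84 fragments in the Dyrk2-KO library and 2.45 FPKM from 67 fragments in the wild-type library. It had the highest log2 ratio of the 33 members, 0.27, with an interval of the plain ratio from 0.896 to 1.75 that includes 1. Hes7, an oscillator of the somite clock, was at 0.22 FPKM in the Dyrk2-KO library and 0.36 FPKM in the wild-type library. Hes3, which acts in neural precursors, had 1 fragment in the Dyrk2-KO library and 0 in the wild-type library, where 3 fragments would equal 0.0764 FPKM. Both lie too low for a comparison.

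Hey1, a repressor of endothelial and mesenchymal cells among others, was the most abundant member in the wild-type library. It is a minus-strand gene at 8663359 to 8667256 of chromosome 3 and measured 50.9 FPKM (49.2 to 52.7) in the Dyrk2-KO library and 65.7 FPKM (63.7 to 67.7) in the wild-type library. The level was 1.29-fold lower (1.23 to 1.35) in the Dyrk2-KO library. Hey2, a regulator of arteries and heart ventricle, measured 3.43 FPKM (3.06 to 3.83) in the Dyrk2-KO library and 4.55 FPKM (4.13 to 5.01) in the wild-type library. That was a 1.33-fold lower level (1.14 to 1.54) in the Dyrk2-KO library. Of all genes compared, 9.61% had a lower log2 ratio than Hey1, and 9.71% had a lower one than Hey2.

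Heyl, a target gene of vascular smooth muscle and pericytes, had the lowest ratio of all members. The gene is on the plus strand of chromosome 4, at 123233556 to 123249875. It measured 5.70 FPKM (5.25 to 6.18, 586 fragments) in the Dyrk2-KO library and 14.6 FPKM (13.9 to 15.4, 1501 fragments) in the wild-type library. Of all genes compared, 1.19% had a lower log2 ratio than the -1.29 of Heyl. In the order of the 36 members by level, Heyl was number 23 in the Dyrk2-KO library and number 11 in the wild-type library. Its share of the summed Hey level was 9.50% in the Dyrk2-KO library and 17.25% in the wild-type library.

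Nrarp, a target whose product feeds back to destabilise the cut receptor, was level, at 22.7 FPKM (21.5 to 24.1) in the Dyrk2-KO library and 23.5 FPKM (22.2 to 24.9) in the wild-type library. Summed over the Hey genes, the level was 60.0 FPKM in the Dyrk2-KO library and 84.9 FPKM in the wild-type library. Summed over the Hes genes, it was 81.1 FPKM in the Dyrk2-KO library and 85.0 FPKM in the wild-type library.

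Receptors and processing genes were then set beside the targets. Of the 14 receptors and processing genes, all above 1 FPKM, 9 had a log2 ratio below 0, with a median of -0.03. The interval lay below 1 for 5 of them and above 1 for 2. Of the 7 targets above 1 FPKM, 6 had a log2 ratio below 0, with a median of -0.10, and the interval lay below 1 for 4 and above 1 for none. Over all genes compared, 53.7% had a log2 ratio below 0, and the interval lay below 1 for 22.3% and above 1 for 17.7%. Without Heyl the median of the targets was -0.08, and without Hes6, which opposes Hes1, it was -0.23. The 6 ligands above 1 FPKM had a median of -0.38, lower than either. These medians come from few genes and the same pair of libraries, and the difference between the groups was not tested.

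**Figure D3:**
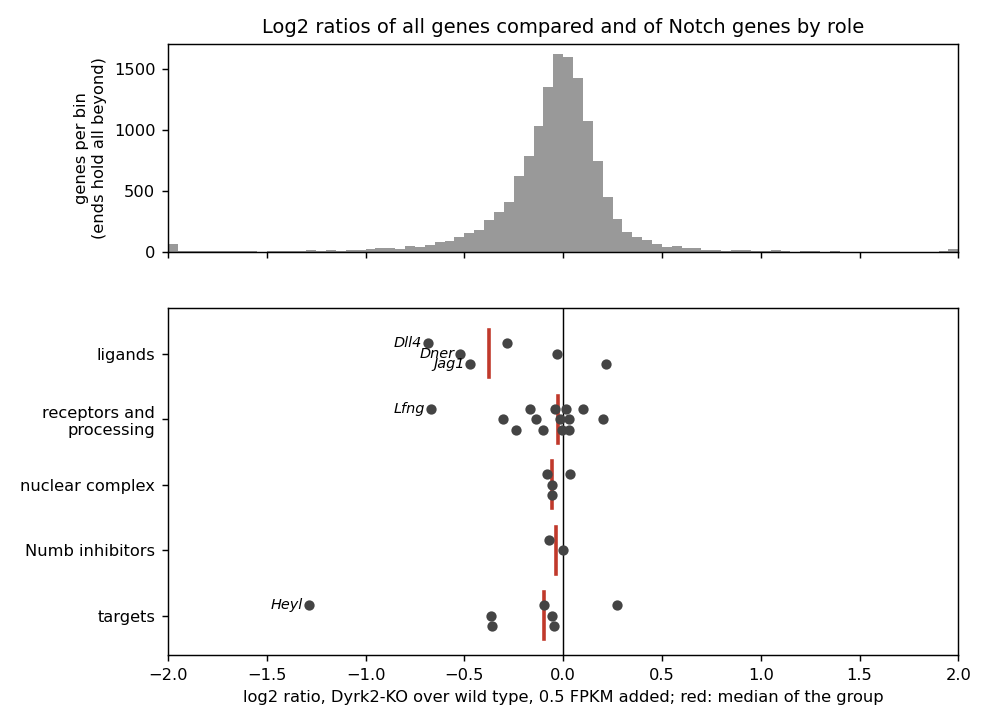
Upper panel: number of genes per 0.05 bin of log2 ratio (Dyrk2-KO over wild type, 0.5 FPKM added) among the 14000 genes compared; the end bins also hold the 55 genes below -2 and the 16 above 2. Lower panel: log2 ratios of the 33 Notch genes by role, with the median of each group in red; ligands and targets reach further to the left than the nuclear complex, and Heyl lies at -1.29.

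Sequences at the start of transcription were searched for the core that Rbpj binds, GTGGGAA, in all members with a window. Promoter windows of 300 bases, 250 before and 50 after the start, came from RefSeq on GRCm38.p6. Windows were found for 31 of the 36 members, 40 windows in all; Hes1, Hes3, Hey1, Heyl and Mfng had none in the table. The core, on either strand, was in 6 of the 40 windows, or 15%, and in 6.38% of all 32851 windows in the table. Those were windows of Hes5, Hey2, Hes7, Lfng, Aph1a and Psen2. The shorter TGGGAA, which every GTGGGAA contains, was in 27.5% of the members' windows and 25.6% of all windows. The boxes CACGCG and CACGTG, which Hes and Hey proteins bind, were likewise sought on both strands and were in 22.5% and 10% of the members' windows and in 9.27% and 7.15% of all windows. A match of letters does not show binding.

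The windows of the targets Hey2 and Hes5 and of Lfng, itself a known Notch target in the mouse, are shown so that its place can be seen, on the gene's strand from 5′ to 3′, with the core in capitals (TTCCCAC is its reverse complement). They are Hey2 (minus strand, chr10:30842734-30843033), Lfng (plus strand, chr5:140607091-140607390) and Hes5 (plus strand, chr4:154960673-154960972).
Hey2: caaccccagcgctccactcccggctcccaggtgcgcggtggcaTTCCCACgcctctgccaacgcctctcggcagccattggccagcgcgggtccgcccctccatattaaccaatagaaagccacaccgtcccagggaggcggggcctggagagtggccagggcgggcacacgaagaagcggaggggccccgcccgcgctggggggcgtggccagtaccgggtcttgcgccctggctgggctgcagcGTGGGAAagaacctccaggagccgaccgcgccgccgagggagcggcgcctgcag
Lfng: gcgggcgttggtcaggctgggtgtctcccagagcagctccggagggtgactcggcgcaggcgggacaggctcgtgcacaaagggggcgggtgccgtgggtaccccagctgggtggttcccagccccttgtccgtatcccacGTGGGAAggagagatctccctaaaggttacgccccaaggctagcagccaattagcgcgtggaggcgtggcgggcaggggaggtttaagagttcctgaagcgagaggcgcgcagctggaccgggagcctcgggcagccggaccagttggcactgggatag
Hes5: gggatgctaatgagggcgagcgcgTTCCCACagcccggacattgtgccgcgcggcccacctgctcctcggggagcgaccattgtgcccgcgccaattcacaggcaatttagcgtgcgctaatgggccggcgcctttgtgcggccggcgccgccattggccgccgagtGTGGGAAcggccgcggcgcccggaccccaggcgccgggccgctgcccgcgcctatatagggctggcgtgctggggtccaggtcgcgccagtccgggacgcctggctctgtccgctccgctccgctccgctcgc
In Hey2 the cores begin 207 and 4 bases before the start, in Hes5 226 and 83 bases before it, and in Lfng the single core begins 109 bases before it. Of the genes with a core, Hey2 and Lfng were lower in the Dyrk2-KO library, with ratios of 0.754 and 0.612. Hes5, Aph1a and Psen2 had ratios of 1.25, 0.988 and 1.02, with intervals that include 1, so their direction is not resolved. Hes7 lay too low for a comparison.

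Other genes of the pathway were gauged with a list of 42 chosen for function: ligand-activating ligases, further glycosyltransferases, corepressors, coactivators and modulators. Of the 40 above 1 FPKM, none reached 1.5-fold in either direction once 0.5 FPKM was added. As a plain ratio, the corepressor gene Tle2 was 1.52-fold lower (1.35 to 1.71). It measured 3.58 FPKM in the Dyrk2-KO library and 5.44 FPKM in the wild-type library. Log2 ratios of the 40 were below 0 for 19 and above 0 for 21, with a median of 0.01. The interval lay below 1 for 9 and above 1 for 8, and after the trimmed-mean scaling for 7 and 11. Dlk1, an imprinted inhibitory relative of the ligands, measured 638 FPKM in the Dyrk2-KO library and 555 FPKM in the wild-type library, and Nedd4, a ubiquitin ligase, 239 and 223 FPKM. The corepressor gene Ctbp1 measured 95.5 FPKM in the Dyrk2-KO library and 92.7 FPKM in the wild-type library, and the microfibril gene Mfap2 154 and 163 FPKM.

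Several members belong to cell types whose own markers differed between the libraries. In bulk tissue, fewer cells of a type and less RNA per cell cannot be told apart. Of 12 perivascular markers, 9 passed 1 FPKM and all 9 had log2 ratios below 0, with a median of -0.51. Their summed level was 45.4 FPKM in the Dyrk2-KO library and 99.1 FPKM in the wild-type library. The actin gene Acta2 measured 1.58 FPKM in the Dyrk2-KO library and 25.7 FPKM in the wild-type library, Tagln, another contractile gene, 2.38 and 9.34 FPKM, and the adhesion gene Mcam 15.2 and 21.8 FPKM. Of those below 1 FPKM, Myh11 and Cnn1 were lower in the Dyrk2-KO library. Des was higher, at 0.85 FPKM in the Dyrk2-KO library and 0.54 FPKM in the wild-type library, with an interval of the ratio from 1.03 to 2.36. None of the 12 was at 0 in either library. Heyl was lower alongside most of these markers, and Notch3 was level. Which cells the Notch3 RNA came from was not tested. The part of the perivascular markers in the Heyl value was not tested.

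Endothelial markers went the other way from the endothelial Notch genes. Of 12 markers, all above 1 FPKM, 8 had log2 ratios above 0 and 4 below, with a median of 0.17. The summed level was 153 FPKM in the Dyrk2-KO library and 137 FPKM in the wild-type library. The cadherin gene Cdh5 measured 28.1 FPKM in the Dyrk2-KO library and 24.1 FPKM in the wild-type library, and the diaphragm gene Plvap 35.95 and 27.3 FPKM. Sox17, a factor of arterial endothelium, was lower, at 1.02 FPKM in the Dyrk2-KO library and 1.70 FPKM in the wild-type library, as were Dll4, Notch4 and Hey2, which that cell type also expresses. The part of arterial cells in those values was not tested.

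Mesenchyme markers had a median of -0.50 over 12 genes, with Col3a1 at 62.1 FPKM in the Dyrk2-KO library and 91.7 FPKM in the wild-type library, and Alx1, a frontonasal regulator, at 4.29 and 0.18 FPKM in the same order. For neuronal markers there was a median of 0.30 over the 9 of 10 above 1 FPKM, with the tubulin gene Tubb3 at 23.1 FPKM in the Dyrk2-KO library and 15.9 FPKM in the wild-type library, and the neurofilament gene Nefm at 9.19 and 16.8 FPKM. Log2 ratios of neuronal markers were above 0 for 7 of the 9 and below 0 for 2, Nefm and Nefl. Nefl, the most abundant of them, measured 34.0 FPKM in the Dyrk2-KO library and 49.99 FPKM in the wild-type library. The summed level of the neuronal list was 92.8 FPKM in the Dyrk2-KO library and 104.5 FPKM in the wild-type library. Dner, a neuronal gene, was lower, as was that sum, while the neuronal median was higher. Infundibular and hypothalamic markers come from tissue beside the pouch where Notch genes are also active. Their median was -0.09 over 10 genes, with log2 ratios below 0 for 7 and above 0 for 3. The 3 were Six3, Bmp4 and Vax1. Six3 measured 42.5 FPKM in the Dyrk2-KO library and 35.9 FPKM in the wild-type library. In the same order, Bmp4 measured 10.5 and 6.5 FPKM and Vax1 1.96 and 0.67 FPKM. Fgf10, among the 7, measured 25.5 and 28.5 FPKM. Erythroid markers had a median of -0.37 over the 7 of 8 above 1 FPKM, and the embryonic globin Hbb-y measured 1285 FPKM in the Dyrk2-KO library and 1675 FPKM in the wild-type library. The part of these cell types in the Notch values was not tested.

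**Figure D4:**
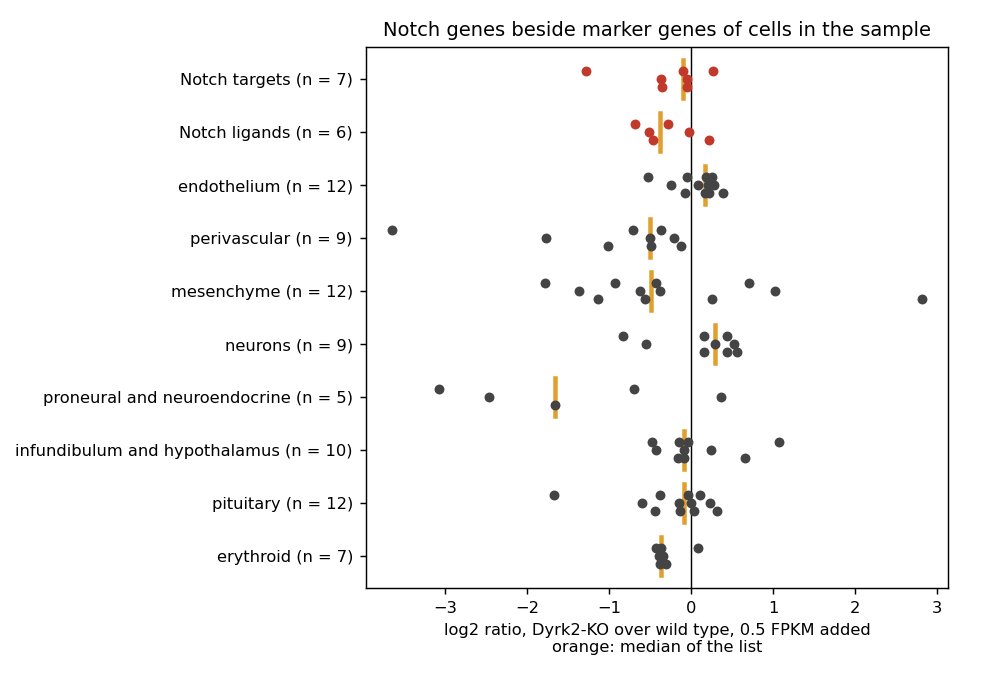
Log2 ratios (Dyrk2-KO over wild type, 0.5 FPKM added) of Notch targets and ligands (red) beside the marker lists of cell types that the sample can hold (grey), each point 1 gene above 1 FPKM, with list medians in orange. The perivascular median lies at -0.51 and the endothelial median at 0.17, on either side of the Notch targets at -0.10.

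Exons of 18 members overlap those of another annotated gene, for 15 of them on the opposite strand and for 3 on the same strand. The libraries were strand-specific, but the sources used here do not state whether counting used the strand. The overlap is longest for Nrarp, where 2051 of 2582 exon bases lie opposite Gm38287, a gene listed at 0.07 FPKM in the Dyrk2-KO library and 0.10 FPKM in the wild-type library. Ncstn shares 195 exon bases with the abundant gene Copa on the opposite strand, at 40.3 FPKM in the Dyrk2-KO library and 40.2 FPKM in the wild-type library. Hes5 shares 433 of its 1363 with Gm20421, listed at 0 in the Dyrk2-KO library and at 0.52 FPKM in the wild-type library. Dll4 shares 214 exon bases with Gm14207, which measured 0.42 FPKM in the Dyrk2-KO library and 0.66 FPKM in the wild-type library. Heyl, Lfng, Jag1, Hey1 and Hey2 share none.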

How the data were processed

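RNA libraries of 1 Dyrk2-KO and 1 wild-type sample were grouped by their genotype labels. The authors deposited FPKM to 2 decimals with the summed exon length of each gene, per the file headers. The submitters' processing notes name cutadapt 1.9.1, HISAT2 2.0.1 and the GRCm38 build; for the counting tool and its use of strand the sources used here give nothing. The tables are scaled alike, since the products of FPKM and exon length add up to equal totals, so any large shift in a few genes moves all others. Exon lengths of all 36 members equal the merged exons of GENCODE M21, from which symbols (55141 of 55401 genes), coordinates and overlaps came.

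Fragments were recovered from the steps of FPKM times length: 1372 of 1372 Dyrk2-KO and 1512 of 1512 wild-type values checked (up to 100 fragments, rounding error under 0.05) were whole within 0.1. They gave exact 95% Poisson intervals of levels and Clopper-Pearson intervals of ratios (scipy 1.17.1, Python 3.11.15), which cover counting error only. The depth puts 3 fragments on a 1 kb gene at 0.149 FPKM in the Dyrk2-KO library and 0.15 FPKM in the wild-type library. Genes reaching 1 FPKM in either library were compared, and log2 ratios used 0.5 FPKM added, which understates changes of low genes; no count model was run. Scripts were tested on simulated data. Members and lists were chosen with earlier results of these data known. All 36 members are named. From the other pathway genes came those past 1.5-fold and the 4 most expressed, and from each marker list genes among the 2 most expressed and the 2 with the largest ratio. The proneural genes of the closing observations, and the genes that overlap members, were named outside that rule, and 1 listed marker gene is not reported here. Other pseudocounts, filters and scalings were run as alternatives.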

Additional observations from a re-analysis of the deposited data

How the results depend on the processing

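No paired analysis was possible because each genotype has 1 library, and for the same reason none could be left out. Alternatives were pseudocounts of 0.1 and 2 FPKM, no filter, a filter of 5 FPKM, scaling by a trimmed mean or the upper quartile (factors of 1.023 and 1.022 on the Dyrk2-KO library) and an exon minimum of 200 bases. An equal pseudocount, a filter or an exon minimum cannot change the sign of a ratio, so only the scalings could. Under both scalings, all 13 members with intervals below 1 kept log2 ratios below 0. This outcome was fixed in advance by the size of the factors. Hes1, the closest of the 13 to 0 at -0.096, lay further below it than they could move a ratio. Both scalings raise every Dyrk2-KO value, so Notch2 and Pofut1 could only stay above 0. With 2 FPKM added, 1 member was at least 1.5-fold lower (Heyl, at -1.11), and 0 receptors and processing genes and 0 canonical ligands were; over all genes 2.15% were lower and 0.943% higher. With 0.1 FPKM added, 1 other pathway gene, Tle2, was at least 1.5-fold lower. With a filter of 5 FPKM, 2 canonical ligands were left, of which 2 had ratios below 0 and 0 were 1.5-fold lower; over all genes 1.97% were lower and 0.664% higher. With no filter, all-gene shares were 2.15% lower, 1.12% higher, 24.2% with ratios below 0, and 6.87% and 4.98% with intervals below and above 1, since most added genes were at or near 0. The median of receptors and processing genes turned to 0.0029 with the trimmed mean and 0.0015 with the upper quartile. Depth limits Dll3, Hes5, Hes7, Hes3 and Dlk2, each with at most 107 fragments in a library.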

Other observations

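Proneural genes, which Hes repressors hold down in many tissues, were looked at after their values were seen. Neurog3, an endocrine lineage factor of the pancreas and gut, measured 1.40 FPKM from 47 fragments in the Dyrk2-KO library and 0.98 FPKM from 33 fragments in the wild-type library, with a 95% counting interval of the ratio from 0.890 to 2.29 that includes 1. Neurod1, which acts in corticotrophs as well as in neurons, measured 0.71 FPKM from 39 fragments in the Dyrk2-KO library and 3.33 FPKM from 182 fragments in the wild-type library, a ratio of 0.213 with an interval from 0.147 to 0.303. Neurod4 had 3 fragments in the Dyrk2-KO library and 8 in the wild-type library, too few for a comparison. Neurog1, Neurog2, Neurod2 and Atoh1 had at most 1 fragment in either library. Insm1, a neuroendocrine repressor, was lower, at 15.1 FPKM in the Dyrk2-KO library and 24.8 FPKM in the wild-type library. The granin gene Chga measured 10.8 FPKM in the Dyrk2-KO library and 94.9 FPKM in the wild-type library, and Scg2, another granin gene, 33.7 and 189 FPKM.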
